A study of Mus musculus with 10 samples.

Results

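The genes Tbr1, Eomes, Foxp1, Foxp2, Neurod2, Satb1, Tfap2d and Zic1 encode transcription factors that mark subtypes of retinal ganglion cells (RGCs), and they are 8 of the 34254 genes counted in this scRNA-seq. They were chosen by name, with earlier results of these data known, and each was found once under its symbol. RGCs were profiled from wild-type 129S1/SvImJ mice at 12 weeks of age (P84). They were either uninjured (6 libraries) or 2 weeks after optic nerve crush (ONC, 4 libraries), an injury that severs RGC axons. The mice are described as of both sexes, but the female transcript Xist was frequent in injured libraries 1 and 2 alone. Each library holds the RGCs of pooled retinas, enriched by Thy1 immunopanning, a capture on antibody-coated plates. The series text adds sorting by FACS, which the sample protocols do not mention. The labels and the paper also differ on the reagent kit (v3 or v2), the sequencer (NovaSeq or HiSeq) and whether amacrine cells were depleted together with macrophages. Total UMIs per library, each UMI marking 1 captured RNA molecule, ranged from 2839693 to 23180399 in uninjured and from 4698799 to 8860536 in injured RGCs. The files hold 1683 uninjured and 1609 injured cells.

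RGCs are the neurons that carry visual signals from the retina to the brain, and they fall into many subtypes that differ in dendrite shape, targets and response to light. Transcription factors of the T-box, forkhead, bHLH, SATB, AP-2 and ZIC families divide these subtypes, and several of them are needed while a subtype forms or to keep its identity. Eomes (also called Tbr2) is known for its role in intrinsically photosensitive RGCs, Tbr1 for subtypes whose dendrites lie in the OFF layers, Satb1 for direction-selective RGCs, and Foxp2 for the small cells named F-RGCs.

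The libraries stood apart in several ways before any of the 8 genes was compared. Of the cell barcodes, 421 were common to injured 3 and injured 4, whereas any other 2 libraries had at most 1 in common. Their summed counts were as close as sampling allows (median chi-square of the genes over the value from sampling alone, 0.954), so they were averaged and counted as 1 sample, injured 3/4. The injured libraries then held 1188 distinct cells, and 6 uninjured samples were compared with 3 injured samples. The same chi-square ratio was low (1.44 to 2.11) for 4 further pairs of libraries, namely uninjured 1 with 2, uninjured 3 with 4, uninjured 5 with 6, and injured 1 with 2, where other pairs of 1 condition had 3.46 to 15.9. Whether such similar libraries come from the same animals is not stated. The reporter mCherry, which the labels do not mention, gave UMIs in 7.99%, 15.0%, 86.0% and 84.3% of the cells of injured 1 to 4 and in 0% of uninjured cells. Xist, a transcript of female cells, was present in 62.1% of cells in injured 1 and 67.4% in injured 2, while no other library exceeded 0.569%. mCherry was thus found in injured libraries alone, at shares that differed widely between them. The parts of mCherry and of sex in the results were not tested.

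The RGC label was checked against markers of the retinal cell classes. The 6 RGC markers summed to 5499 to 7107 CPM (UMIs of a gene scaled to a fixed sample total) in uninjured and 3647 to 4986 CPM in injured samples, and Sncg was the most abundant of them. The 6 amacrine markers, led by Gad1, summed to 49.4 to 187 CPM and 55.1 to 143 CPM, and the 7 bipolar markers to 1.06 to 7.03 CPM and 0.505 to 1.06 CPM. The 6 Mueller glia markers, led by Clu, summed to 129 to 169 CPM in uninjured and 275 to 421 CPM in injured samples, and they thus moved with the condition. Cells with UMIs of at least 3 markers of 1 other class made up 21.3% of the uninjured and 8.70% of the 1609 injured cells. The latter share counts the cells common to injured 3 and 4 in both libraries. By library, such cells made up 8.96% to 31.3% in uninjured and 5.31% to 12.8% in injured libraries. Any UMI at the cell's own depth counted, so a cell with more UMIs reaches 3 markers more easily. The highest share was in uninjured 4 and the lowest in injured 4, which also had the most and fewest UMIs in the median cell. Not all libraries kept this order, with 8.96% in uninjured 6 and 12.8% in injured 2. The part of depth in these shares was not tested. The part of these markers in the results was not tested, but results were computed again without those cells. The median cell of a library also held fewer UMIs after injury (11257 to 14695) than before (20437 to 34337). Shares of cells were therefore computed per 10000 UMIs of the cell. This scaling did not settle the part of depth. Over all tested genes, 30.6% had a higher share in every injured sample and 9.88% a lower one. With every cell thinned to the same number of UMIs, 14.6% were higher and 19.2% lower.

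The first comparison asks whether the summed level of each factor changed after axon injury. Levels are CPM with the sample totals adjusted by edgeR's TMM factors, and the test is edgeR's quasi-likelihood test over all 14234 genes that passed its filter on low counts, with p adjusted by the Benjamini-Hochberg method and called at 0.05. All 8 genes passed the filter. Eomes, Foxp2, Neurod2, Satb1 and Zic1 fell (5 of 8, where 22.7% of all tested genes were lower), Foxp1 rose (1 of 8, where 21.3% were higher), and Tbr1 and Tfap2d were not past the threshold. The median log2 fold change of the 8 genes was -1.01, against -0.03 over all tested genes. The ranges of injured and uninjured samples were separate for Foxp2, Neurod2 and Satb1, which were lower in every injured sample (21.1% of all tested genes were), and for Foxp1, which was higher in every injured sample (21.8% were). Without injured 3/4, the sample with most mCherry, Foxp2, Neurod2, Satb1 and Zic1 fell and Foxp1 rose. The same calls were made without injured 1 or without injured 2, so that Eomes was not past the threshold in these settings. Without injured 3/4, 2501 of all 14386 tested genes were lower and 2574 higher. The counts were 2473 and 2488 of 14378 without injured 1, and 2604 and 2570 of 14681 without injured 2. With similar libraries summed, Foxp2, Neurod2 and Zic1 fell and 0 of the 8 genes rose. In that setting, 2146 of all 15454 tested genes were lower and 2035 higher.

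**Figure D1:**
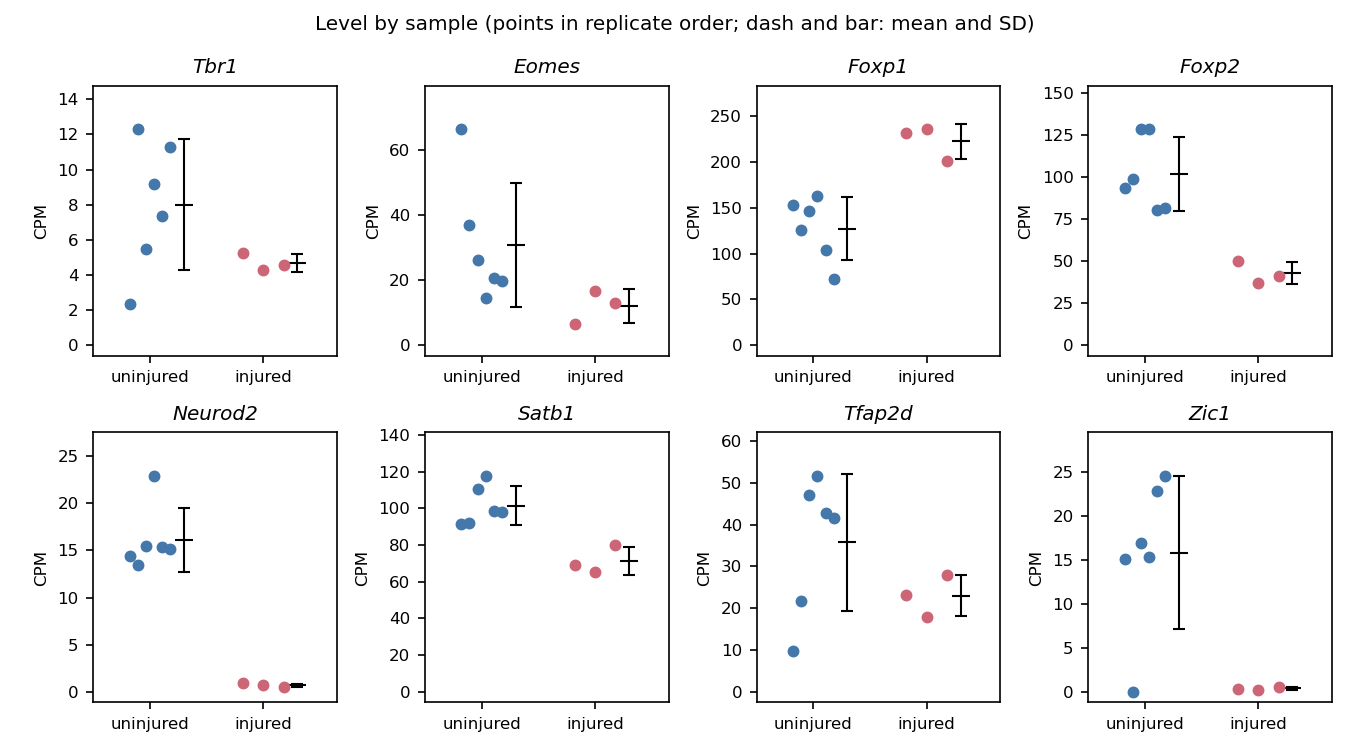
Level of each factor in CPM (vertical axes, a scale for each gene) in the 6 uninjured and 3 injured samples, drawn in replicate order, with the mean and SD beside each group. Neurod2 and Zic1 lie under 1 CPM in every injured sample, and Foxp1 is the gene whose injured samples all lie above the uninjured samples.

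Neurod2, a bHLH factor of neuronal differentiation, fell from 16.1 ± 3.42 CPM (SD, n = 6) to 0.693 ± 0.169 CPM (SD, n = 3). The lowest, median and highest uninjured samples were at 13.4, 15.3 and 22.9 CPM, and injured 1, injured 2 and injured 3/4 were at 0.872, 0.671 and 0.535 CPM. Uninjured 4 stood above the other 5 uninjured samples, which lay close together, and no injured sample came near them. The fall is a log2 fold change of -4.56 (standard error, SE, 0.30, edgeR adjusted p = 4.29e-07), and 58 of the 14234 tested genes had a larger fall. In injured 1 to 3 the level rests on 13 UMIs, or 0.667 CPM of the summed total (95% interval for counting error 0.355 to 1.14), against 1009 UMIs in uninjured libraries. In the GENCODE annotation of mm39 (GRCm39), Neurod2 spans bases 98216241 to 98220480 of chromosome 11 (reverse strand).

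Zic1, a zinc finger factor, fell to a similar degree, from 15.8 ± 8.72 CPM (SD, n = 6) to 0.369 ± 0.157 CPM (SD, n = 3). Its lowest, median and highest uninjured samples were at 0, 16.2 and 24.6 CPM, and its injured samples were at 0.349, 0.224 and 0.535 CPM. Uninjured 2 held 0 UMIs of Zic1, which allows a level of up to 0.876 CPM, and it is the reason that the groups overlap. The other 5 uninjured samples were all far above the injured samples. As a log2 fold change, the fall is -5.30 (SE 1.03, edgeR adjusted p = 0.00138). Injured 1 to 3 held 9 UMIs (0.462 CPM, 95% interval for counting error 0.211 to 0.876) against 882 in uninjured libraries, so the size of the fall is set by few counts. Zic1 spans bases 91240111 to 91247863 of chromosome 9 (reverse strand) and overlaps Zic4 on the forward strand, of which 33 UMIs were counted in uninjured and 2 in injured libraries. The treatment of reads that fit more than 1 gene is not given, which leaves these counts uncertain to that degree.

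The bases before the start of Neurod2, the gene with the smallest adjusted p of the 8, are shown beside those of Eomes, the 1 of 7 matched genes with no E-box in this window, because Neurod2 belongs to the bHLH proteins, which are known to bind E-boxes. Eomes was chosen after the data were seen. Of the 8 genes, 7 had an entry in the RefSeq promoter table (GRCm38.p6), and Foxp2 had none. Both sequences were matched exactly to GRCm39 and run 5' to 3' on the strand of the gene. The Neurod2 sequence, chr11:98220481-98220721 on the reverse strand, ends next to the annotated start and overlaps an exon of the noncoding gene Gm71805. The Eomes sequence, chr9:118307007-118307256 on the forward strand, ends 24 bases before the annotated start. Capitals mark E-boxes (CANNTG, which reads the same on both strands).
Neurod2: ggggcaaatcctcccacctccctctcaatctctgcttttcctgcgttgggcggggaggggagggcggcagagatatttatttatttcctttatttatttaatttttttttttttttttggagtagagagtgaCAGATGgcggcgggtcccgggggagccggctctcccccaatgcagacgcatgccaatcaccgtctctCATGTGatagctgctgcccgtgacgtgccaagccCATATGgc
Eomes: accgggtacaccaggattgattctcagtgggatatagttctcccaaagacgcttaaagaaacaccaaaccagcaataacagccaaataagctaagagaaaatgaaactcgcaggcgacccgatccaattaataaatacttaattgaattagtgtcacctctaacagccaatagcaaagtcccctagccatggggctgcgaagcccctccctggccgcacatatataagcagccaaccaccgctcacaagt
The Neurod2 sequence holds 3 E-boxes and that of Eomes 0. E-boxes are common: 66.2% of 32536 distinct promoters held one in the 250 bases before the start, as did 9 of the 15 starts of the 7 matched genes, or 6 of these genes in at least 1 start. The AP-1 letters TGANTCA (6.73% of promoters), the forkhead letters TGTTTAC (3.17%) and the T-box letters AGGTGTGA (1.12%), searched on both strands, were in 0 of the 15. These matches describe letters in a window and say nothing of binding.

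The forkhead genes Foxp1 and Foxp2, both repressors of transcription, moved in opposite directions. Foxp2 fell from 102 ± 21.8 CPM (SD, n = 6) to 42.9 ± 6.70 CPM (SD, n = 3), with a log2 fold change of -1.25 (SE 0.20, edgeR adjusted p = 3.10e-04). Its lowest, median and highest uninjured samples were at 80.7, 96.2 and 129 CPM, and injured 1, injured 2 and injured 3/4 were at 50.2, 37.1 and 41.2 CPM, so that the groups stood well apart. Foxp1 rose from 127 ± 34.2 CPM to 223 ± 19.2 CPM, a log2 fold change of 0.80 (SE 0.22, edgeR adjusted p = 0.0108). Its lowest, median and highest uninjured samples were at 72.3, 136 and 163 CPM, and its injured samples at 231, 236 and 201 CPM. Uninjured 5 and 6 were the lowest for Foxp1, and the log2 ratio of the injured mean to the mean of a similar pair was 1.34 for uninjured 5 and 6, 0.67 for uninjured 1 and 2 and 0.53 for uninjured 3 and 4. When each set of similar libraries was added up, which left 3 uninjured units and 2 injured ones, the log2 fold change of Foxp1 was 0.75 and was not past the threshold (edgeR adjusted p = 0.0706, range 7.86e-04 to 0.0706 over 18 settings). Foxp2 spans bases 14901287 to 15441976 of chromosome 6 (forward strand), and Foxp1 spans 98902299 to 99499685 of the same chromosome (reverse strand). Foxp1 overlaps 3 other counted genes, Gm52870 (221 UMIs in all libraries), Gm20705 (27 UMIs) and Gm20696 (0 UMIs).

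Satb1, which organizes chromatin, had the smallest log2 change of the genes past the threshold, from 102 ± 10.5 CPM (SD, n = 6) to 71.4 ± 7.58 CPM (SD, n = 3). The lowest, median and highest uninjured samples were at 91.7, 98.4 and 118 CPM, and injured 1, injured 2 and injured 3/4 at 69.1, 65.3 and 79.9 CPM. The spread within each condition was small, and the groups did not overlap. The log2 fold change was -0.51 (SE 0.13, edgeR adjusted p = 0.00783), and with similar libraries summed it was -0.48 and not past the threshold (edgeR adjusted p = 0.125, range 3.63e-04 to 0.125 over 18 settings). Satb1 spans bases 52043114 to 52140622 of chromosome 17 (reverse strand).

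Both T-box genes varied widely between uninjured samples. Eomes fell from 30.8 ± 19.1 CPM (SD, n = 6) to 12.0 ± 5.21 CPM (SD, n = 3), with a log2 fold change of -1.32 (SE 0.48, edgeR adjusted p = 0.0414). Its lowest, median and highest uninjured samples were at 14.4, 23.5 and 66.5 CPM, and injured 1, injured 2 and injured 3/4 at 6.45, 16.8 and 12.9 CPM. Uninjured 1 and 2 were the highest, injured 2 overlapped the uninjured samples, and the log2 ratio of the injured mean was -2.10 to uninjured 1 and 2 and -0.76 to each of the other similar pairs. The call for Eomes was lost in 9 of 18 settings, and its adjusted p ranged from 0.0107 to 0.165. It was lost without uninjured 2 (edgeR adjusted p = 0.0712), injured 1 (0.165), injured 2 (0.0515) or injured 3/4 (0.107). It was also lost without cells that held markers of another class (0.0686) and with cells thinned to 8000 UMIs (0.0749, log2 fold change -0.88). The remaining losses were with no filter (0.0940), similar libraries summed (0.0583), and libraries 1 to 3 with their number as a block (0.0662). Tbr1 was at 7.99 ± 3.73 CPM in uninjured and 4.68 ± 0.503 CPM in injured samples, which did not pass the test (log2 fold change -0.77, SE 0.39, edgeR adjusted p = 0.130, and 0.0262 without uninjured 1, in a range of 0.0262 to 0.436). Eomes spans bases 118307280 to 118315200 of chromosome 9 (forward strand) and overlaps the noncoding gene Gm33460, with 18 UMIs. Tbr1 spans bases 61633274 to 61644458 of chromosome 2 (forward strand).

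Tfap2d, of the AP-2 family, was at 35.8 ± 16.4 CPM (SD, n = 6) in uninjured and 23.0 ± 4.98 CPM (SD, n = 3) in injured samples, which was not past the threshold (log2 change -0.67, SE 0.40, edgeR adjusted p = 0.197). Its uninjured samples fell into a low pair, 9.74 CPM in uninjured 1 and 21.8 CPM in uninjured 2, and 4 samples between 41.6 and 51.7 CPM. Injured 1, injured 2 and injured 3/4 were at 23.2, 17.9 and 27.8 CPM, and the log2 ratio of the injured mean was 0.54 to uninjured 1 and 2, -1.11 to uninjured 3 and 4 and -0.88 to uninjured 5 and 6. Without uninjured 1, Tfap2d was past the threshold (log2 fold change -0.82, edgeR adjusted p = 0.0262), as it was with cells thinned to 8000 UMIs (0.0202), in a range of 0.0202 to 0.829. Tfap2d spans bases 19173246 to 19236570 of chromosome 1 (forward strand) and overlaps the noncoding gene Gm15825, with 835 UMIs.

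A change in the sum over cells can come with a change in the share of cells that carry a gene or in the level within them, and both were measured. A cell was called positive at 1 or more UMIs per 10000 of its UMIs, and the shares of the samples were put to an exact permutation test (two-sided), which with 6 against 3 samples gives no p below 0.0238. These tests take the 9 samples as independent. If each set of similar libraries counted as 1 unit, 3 against 2 units would give no p below 0.200, so the results on cells could not pass the threshold. Eomes and Neurod2 had a lower share in every injured sample (2 of 8, where 9.88% of all tested genes did), and Foxp1 had a higher share in every injured sample (1 of 8, where 30.6% did). After each cell was thinned to 8000 UMIs, Neurod2 and Satb1 were lower in this way (2 of 8, where 19.2% of genes were) and 0 of 8 were higher (14.6% were). Over all tested genes, higher shares were thus the more frequent with the threshold, and lower shares after thinning. The part of depth in shares and levels set by the threshold was not tested. Droplets also capture free RNA, and no cells of a type that should lack these factors were deposited, so no background share can be given. The files give shares among captured cells and no number of cells per retina, so how many RGCs of a subtype survived was not measured.

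**Figure D2:**
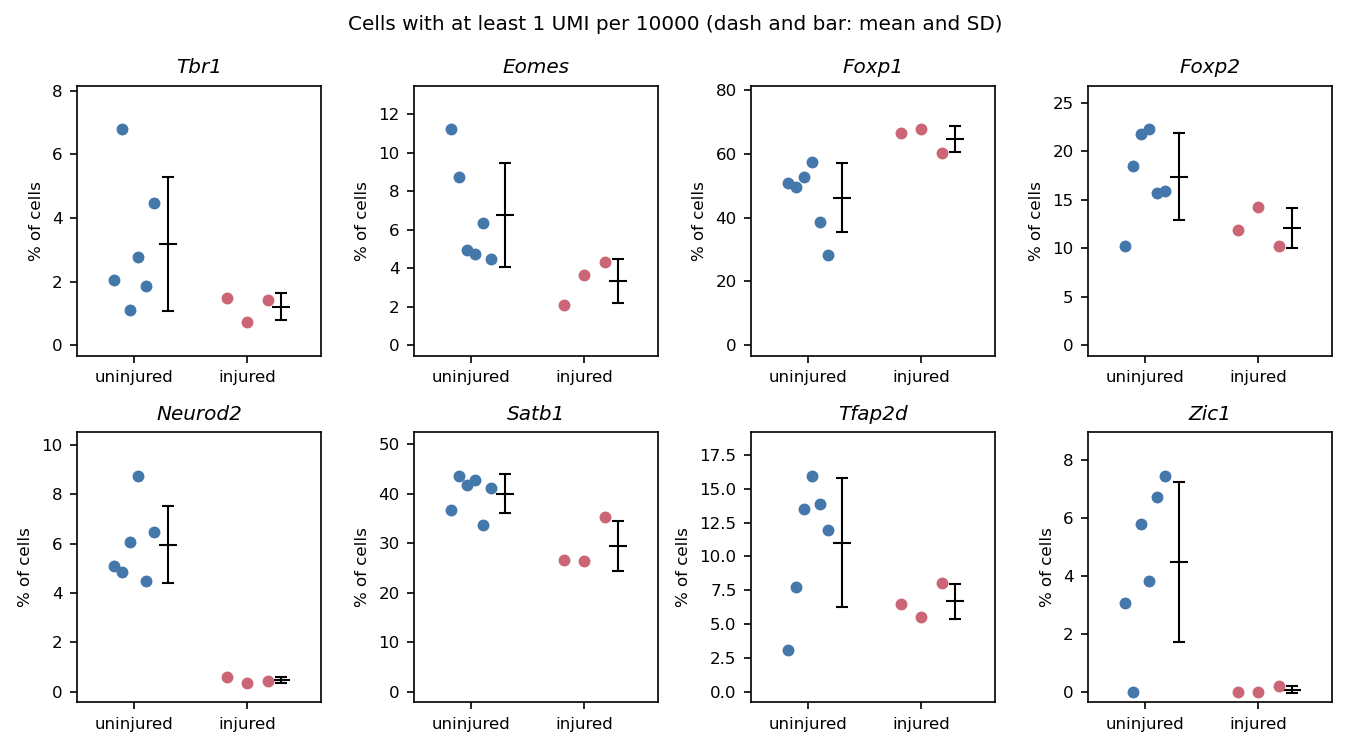
Share of cells (vertical axes, in %, a scale for each gene) with at least 1 UMI of a factor per 10000 UMIs, in the 6 uninjured and 3 injured samples, with the mean and SD beside each group. Neurod2-positive cells are under 1% in every injured sample, and 1 uninjured sample has no Zic1-positive cell.

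Neurod2-positive cells fell from 5.96% ± 1.56 (SD, n = 6) to 0.457% ± 0.119 (SD, n = 3; exact permutation p = 0.0238), with 4.49% in the lowest uninjured and 0.592% in the highest injured sample. Pooled, 114 of 1683 uninjured cells and 4 of 1138 cells of injured 1 to 3 were positive. Zic1-positive cells were at 4.48% ± 2.76 (SD, n = 6) and 0.0670% ± 0.116 (SD, n = 3), and the exact permutation p was 0.0952, or 0.0357 without uninjured 2. Injured 1 and injured 2 held 0 Zic1-positive cells of 338 and 273, which allows up to 0.888% and 1.10%, and uninjured 2 held 0 of 103, which allows up to 2.91%. With fewer than 5 positive cells in each injured sample, no level within positive cells was computed for Neurod2 or Zic1 after injury. For these genes a loss of positive cells and a level that fell below 1 UMI per 10000 in all cells cannot be told apart.

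For Foxp2, the level within positive cells fell while the share of positive cells did not pass the test. Of the 4 factors with such a level in all 9 samples, Foxp2 was lower in every injured sample (1 of 4, where 5.63% of 5755 genes were) and Foxp1 was higher (1 of 4, where 36.0% were). Foxp2-positive cells held 6.08 ± 0.868 UMIs per 10000 in uninjured samples (SD, n = 6) and 3.85 ± 0.429 in injured samples (SD, n = 3; exact permutation p = 0.0238), and the groups did not overlap. Their share was 17.4% ± 4.49 and 12.1% ± 2.06 (exact permutation p = 0.0952). The p for the share was under the threshold without uninjured 1 (exact permutation p = 0.0357), which had the lowest uninjured share at 10.2%, and with cells thinned to 8000 UMIs (0.0476). Foxp2 was thus lower in the cells that carried it, and whether fewer cells carried it depended on the setting.

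Foxp1 was higher on both measures, as were many other genes. In every injured sample, 30.6% of all tested genes had a higher share. Of 5755 genes with a level in all 9 samples, 36.0% had a higher level within positive cells. Foxp1-positive cells rose from 46.3% ± 10.8 (SD, n = 6) to 64.8% ± 4.09 (SD, n = 3; exact permutation p = 0.0238), and the level within them rose from 2.29 ± 0.436 to 3.22 ± 0.163 UMIs per 10000 (exact permutation p = 0.0238). The share depends on how depth is handled. With any UMI at the cell's own depth counted, 81.7% of uninjured and 81.5% of injured cells carried Foxp1 (exact permutation p = 0.929), and after thinning to 8000 UMIs the shares were 54.4% and 68.4% (0.0476), with an overlap between the groups. Among cells with at least 2 UMIs per 10000, the level was 3.70 and 4.33 UMIs per 10000 (exact permutation p = 0.143).

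For Eomes and Satb1, the share of positive cells fell while the level within them did not pass the test. Eomes-positive cells fell from 6.75% ± 2.70 (SD, n = 6) to 3.35% ± 1.15 (SD, n = 3; exact permutation p = 0.0238), and the level within them was 3.72 ± 1.23 and 3.13 ± 0.545 UMIs per 10000 (exact permutation p = 0.476). After thinning to 8000 UMIs the Eomes shares were 7.26% and 4.56%, and the groups overlapped (exact permutation p = 0.0952). With at least 2 UMIs per 10000 in place of 1, both shares overlapped between the groups and did not pass the test, at 4.61% and 2.07% for Eomes (exact permutation p = 0.143) and 13.2% and 10.6% for Satb1 (0.452). Satb1-positive cells fell from 40.0% ± 3.93 to 29.4% ± 5.08 (exact permutation p = 0.0476, and 0.0238 after thinning to 8000 UMIs), and the level within them was 1.97 ± 0.262 and 1.97 ± 0.0624 UMIs per 10000 (exact permutation p = 1). The p for the Satb1 share was 0.0714 without uninjured 1, 2, 3, 4 or 6. Without 1 injured sample, 6 against 2 samples cannot give an exact p under the threshold of 0.05. Positive cells are defined by a threshold, so the level within them cannot fall below it, and a part of a decrease can appear as fewer positive cells. The level within positive cells also moved over all genes. Of 5755 genes with such a level in all 9 samples, 36.0% were higher in every injured sample and 5.63% lower. The part of this shift in the levels of Eomes and Satb1 was not tested.

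Tfap2d passed neither test, and Tbr1 did not pass that of the share. Tfap2d-positive cells were at 11.0% ± 4.76 (SD, n = 6) and 6.69% ± 1.29 (SD, n = 3; exact permutation p = 0.190), and uninjured 1, at 3.06%, lay below every injured sample. The level within them was 2.35 ± 0.200 UMIs per 10000 in the 5 uninjured samples with enough positive cells and 2.25 ± 0.0929 in the 3 injured samples (exact permutation p = 0.5). Tbr1-positive cells were at 3.18% ± 2.11 (SD, n = 6) and 1.21% ± 0.415 (SD, n = 3; exact permutation p = 0.0714, and 0.0357 without uninjured 3). The level within Tbr1-positive cells was 1.64 ± 0.255 UMIs per 10000 in 4 uninjured samples and 1.88 ± 0.0258 in 2 injured samples, and so few samples give no exact p below 0.133. With 45 positive cells in all uninjured libraries, Tbr1 gave the fewest cells of the 8 genes before injury.

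**Figure D3:**
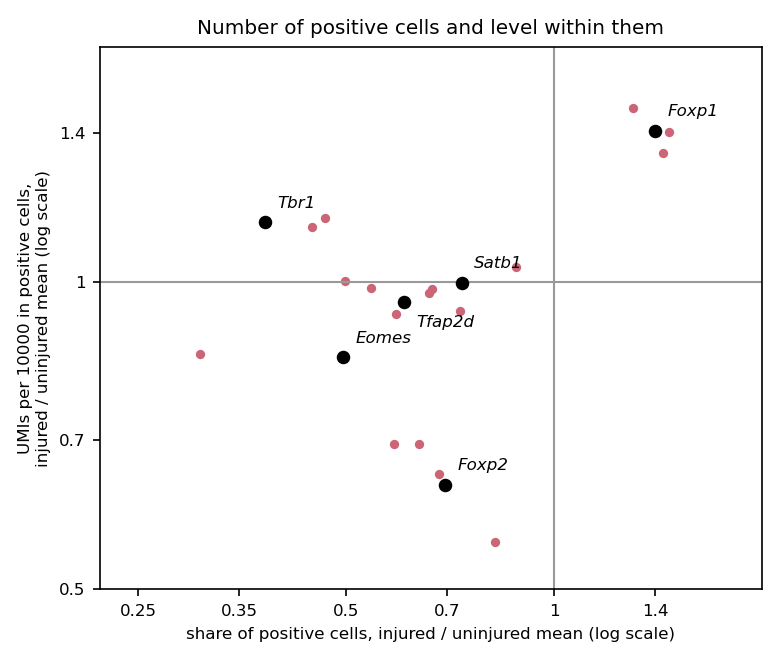
Injured value over the uninjured mean for the share of positive cells (horizontal, log scale) and for UMIs per 10000 within positive cells (vertical, log scale). Black points are means of the injured samples and small points the single injured samples; Neurod2 and Zic1 have too few positive cells after injury. Foxp2 lies low on the vertical axis, Satb1 lies left of 1 at a vertical value of 0.998, and Foxp1 lies above 1 on both axes.

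The number of factors that a cell carried was also counted. Cells positive for 3 or more of the 8 factors fell from 11.4% ± 3.52 (SD, n = 6) to 6.20% ± 0.861 (SD, n = 3; exact permutation p = 0.0238), while cells with 1 were at 38.4% ± 3.97 and 46.9% ± 7.34 (exact permutation p = 0.0714), cells with 2 at 30.2% ± 4.75 and 25.9% ± 3.36 (0.214) and cells with none at 19.9% ± 4.64 and 21.0% ± 3.11 (0.762). After thinning to 8000 UMIs, cells with 3 or more were at 15.5% and 8.38%, and the groups overlapped (exact permutation p = 0.0952). Foxp1 and Satb1 were carried by many cells, so the other 6 factors were also counted alone. Cells with none of the other 6 factors rose from 55.9% ± 7.50 to 78.3% ± 1.39 (exact permutation p = 0.0238), and cells with 1 of the 6 fell from 39.6% ± 7.81 to 19.5% ± 1.61 (exact permutation p = 0.0238). Cells with 2 or more of the 6 were at 4.53% ± 2.21 and 2.16% ± 0.291, which did not pass the test (exact permutation p = 0.0714).

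The next comparison asks which factors were found in the same cell. For each pair, the number of cells positive for both was divided by the number given by the product of the shares within each library. Doublets, which are droplets with more than 1 cell, were not looked for, and their part in these numbers was not tested. Injured 4 was left out because it shares cells with injured 3, and no test was made because cells are not replicates. Of the 28 pairs, 24 had at least 5 expected cells in uninjured libraries, and 9 of these were found more often and 15 less often than expected. After thinning to 8000 UMIs, 25 pairs had as many, and 12 were found more often and 13 less often.

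**Figure D4:**
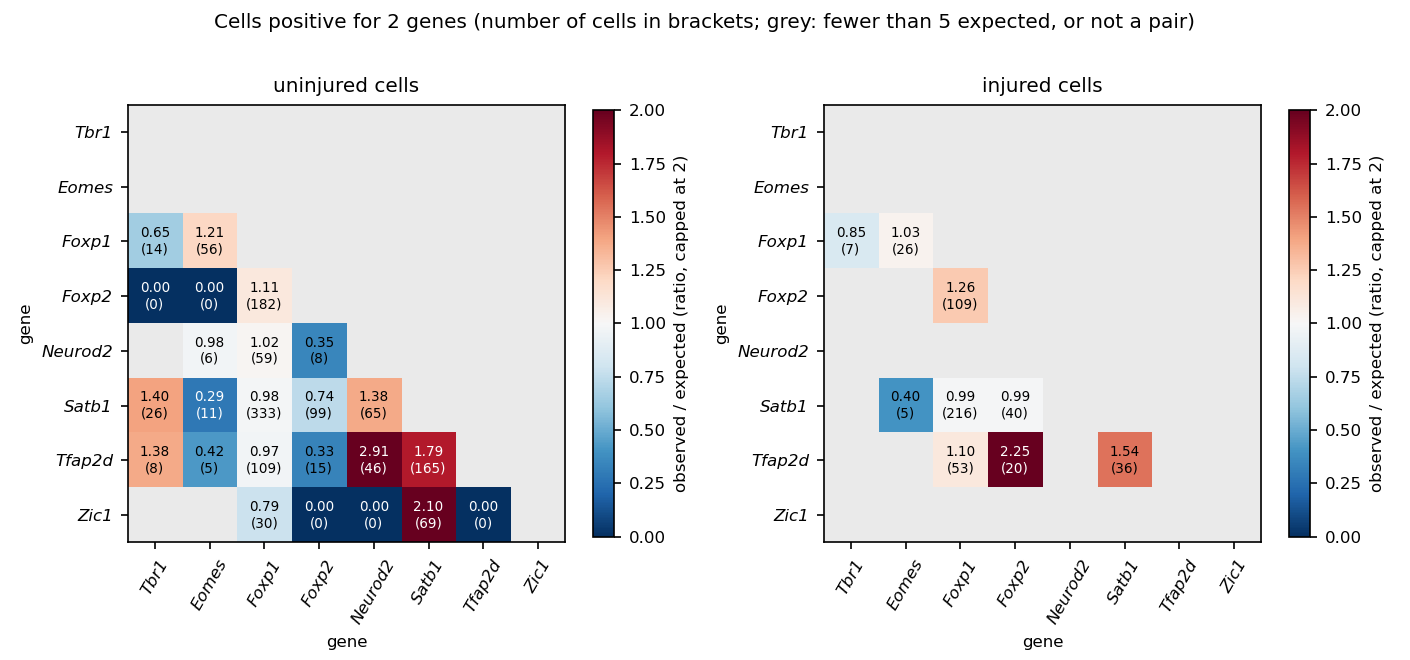
Observed over expected number of cells positive for both genes of a pair, in uninjured cells (left) and in injured cells without injured 4 (right), with the number of cells in brackets and colours capped at 2. In uninjured cells, Foxp2 and Zic1 each share 0 cells with several partners, and Tfap2d stands out with Neurod2 and Satb1.

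Several factors kept apart from each other in uninjured RGCs. Foxp2 and Eomes were found together in 0 cells against 17.7 expected, Foxp2 and Zic1 in 0 against 15.7, and Foxp2 and Tbr1 in 0 against 8.59. Tfap2d and Zic1 were found together in 0 cells against 11.2 expected, and Neurod2 and Zic1 in 0 against 5.39. With at least 1 UMI after thinning to 8000 UMIs in place of the threshold, Foxp2 and Eomes shared 1 cell against 20.8 expected. Eomes and Satb1 shared 11 cells against 38.2 (ratio 0.288), and after thinning the ratio was 0.681.

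Other factors came together. Neurod2 and Tfap2d shared 46 cells against 15.8 expected (ratio 2.91, odds ratio stratified by library 5.04), and the ratio was above 1 in 6 of 6 libraries. Satb1 was found in 73.3% of Tfap2d-positive cells (165 cells against 92.1 expected, ratio 1.79, above 1 in 6 of 6 libraries) and in 84.1% of Zic1-positive cells (69 against 32.9, ratio 2.10, above 1 in 5 of 5 libraries). Satb1 thus marked a broad set of cells that took in most of the Tfap2d-positive and most of the Zic1-positive cells, which did not overlap each other. Neurod2 and Satb1 shared 65 cells against 47.1 (ratio 1.38). Foxp1 was close to its expected number with Satb1 (333 cells, ratio 0.982), Tfap2d (109 cells, ratio 0.972) and Neurod2 (59 cells, ratio 1.02), so that its cells were spread over those of these factors at close to the expected numbers.

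In injured cells, 9 pairs had at least 5 expected cells, and 7 stayed on the same side of 1. Satb1 and Tfap2d shared 36 cells against 23.4 expected (ratio 1.54, above 1 in 3 of 3 libraries), and Eomes and Satb1 shared 5 against 12.5 (ratio 0.400). Foxp1 and Foxp2 shared 109 cells against 86.4 (ratio 1.26), against a ratio of 1.11 in uninjured cells. Foxp1 and Tfap2d had ratios of 0.972 and 1.10, which were 1.02 and 1.00 after thinning to 8000 UMIs. The larger change of side was that of Foxp2 and Tfap2d. They shared 15 cells against 45.3 expected in uninjured libraries (ratio 0.331, above 1 in 3 of 6 libraries, namely uninjured 1, 2 and 6) and 20 against 8.89 in injured libraries (ratio 2.25, above 1 in 3 of 3 libraries). The ratios were 0.505 (above 1 in 0 of 6 libraries) and 2.54 after thinning to 8000 UMIs, and 0.319 and 2.26 without cells that held markers of another class.

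To describe the cells that carried each factor, the genes most like it were taken from uninjured libraries with at least 10 positive cells. These companions are the 5 genes with the highest median log2 ratio of CPM in positive cells to CPM in cells without a UMI of the factor, after adding 5 CPM. Their ratios in injured samples, which the choice did not use, show whether the association was still found. This holds only for genes that stay above the 5 CPM added, since below it the ratio is held near 0. The choice favours genes that are high in uninjured positive cells, so the uninjured and injured ratios were not tested against each other. For the same reason, summed levels are given for companions that were also on the lists of genes chosen by name, and not for others. Those lists were themselves chosen with earlier results of these data known. Over all genes considered, the median ratio was between 0.00 and 0.06 for each factor in uninjured libraries.

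**Figure D5:**
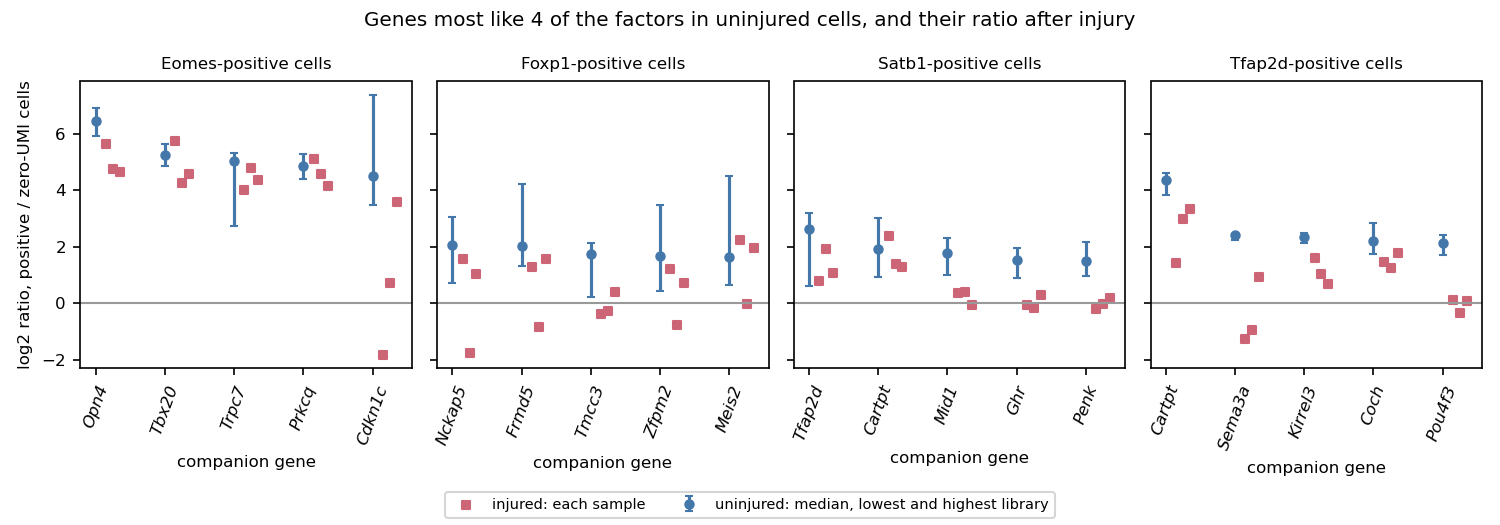
Log2 ratio of CPM in cells positive for a factor to CPM in cells without it, for the 5 companion genes of Eomes, Foxp1, Satb1 and Tfap2d. Circles and bars give the median, lowest and highest uninjured library (the basis of the choice), and squares give each injured sample. The companions of Eomes other than Cdkn1c stay above 4 or near it after injury, and Cartpt, a companion of Tfap2d, stays above 1 in each injured sample.

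The companions of Eomes had the highest ratios, and 4 of the 5 kept high ratios after injury. Opn4, which encodes the photopigment melanopsin, had a median log2 ratio of 6.46 in 4 uninjured libraries and 5.63, 4.76 and 4.63 in injured 1, injured 2 and injured 3/4. The T-box gene Tbx20 had 5.26, and then 5.73, 4.27 and 4.56. The channel gene Trpc7 (5.03) and the kinase gene Prkcq (4.85) were likewise between 4.00 and 5.10 in every injured sample. Opn4 was thus higher in Eomes-positive cells than in cells without Eomes, before and after ONC. Cdkn1c, a cell cycle inhibitor, had 4.52 and then -1.85, 0.70 and 3.57. Tbx20 and Opn4 were also among the class markers chosen by name. The summed level of Tbx20 fell (log2 fold change -0.94, edgeR adjusted p = 0.0323), and that of Opn4 was not past the threshold (-0.52, adjusted p = 0.275).

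Of the companions of Foxp2, Gm49678 had a median log2 ratio of 2.25 in 6 uninjured libraries and -0.16, 0.34 and 0.50 in the injured samples. After injury it was at 2.80 CPM in Foxp2-positive cells, under the 5 CPM added, so these injured ratios cannot show whether the association was lost. The LIM-domain gene Lmo4 had 2.15 and then 0.51, 1.09 and 0.52, and Neto2, which encodes an auxiliary protein of kainate receptors, had 2.00 and then -0.13, 0.62 and 0.24. Spon1, which encodes a secreted matrix protein, had 2.01 and then 2.04, 0.83 and 2.56, so that of these 4 genes it was the one with the highest ratio in injured 1 and injured 3/4.

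Tfap2d and Satb1 shared Cartpt, a neuropeptide gene of direction-selective RGCs, among their companions. Cartpt had a median log2 ratio of 4.37 in Tfap2d-positive cells of 4 uninjured libraries and 1.43, 3.00 and 3.34 in the injured samples. Also chosen by name as a class marker, it fell in summed level from 562 ± 317 to 41.6 ± 9.25 CPM (edgeR adjusted p = 2.93e-04, log2 fold change -3.76 with a SE of 0.59), so Tfap2d-positive cells remained the cells with more Cartpt at a lower level. Sema3a, an axon guidance gene, had 2.43 and then -1.25, -0.93 and 0.92, and the adhesion gene Kirrel3 had 2.33 and then 1.60, 1.03 and 0.68. For Foxp1, whose cells were the most numerous, the first companions were Nckap5 (2.07, and then 1.57, -1.75 and 1.03) and Frmd5 (2.03, and then 1.28, -0.83 and 1.55). For Satb1, the first companion was Tfap2d (2.62, and then 0.79, 1.91 and 1.09).

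Neurod2 and Zic1 had too few positive cells in every injured sample for a ratio, and their companions were read in uninjured libraries alone. Those of Neurod2 were Prdm8 (median log2 ratio 3.78), Kctd4 (3.11), Nfib (2.94), Prlr (2.90) and 9130024F11Rik (2.84).

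The companions of Zic1 were Cfap206 (3.78), Bmper (3.11), Gm17501 (2.82), Adgrg2 (2.65) and the enkephalin gene Penk (2.60). For Tbr1, uninjured 4 was the 1 library with enough positive cells, and Ctxn3 (2.79), Crhbp (2.41), Irx6 (2.40), Rprm (2.33) and Pdzrn3 (2.29) rest on that library.

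The change of the 8 genes was set beside relatives in their families and other factors of RGCs. These lists, and that of class markers below, were chosen with earlier results of these data known. Their counts are therefore no independent test against all genes. Of 14 other T-box genes, 6 had enough counts to be tested, and Tbx15 (log2 fold change -2.57) and Tbx20 (-0.94) fell, 0 rose and 4 were not past the threshold (median -0.38), where 22.7% of all tested genes were lower. Of the 2 other forkhead P genes, Foxp4 was the 1 tested, and it fell from 14.6 ± 4.38 to 3.55 ± 0.728 CPM (-2.03, edgeR adjusted p = 1.90e-04), so that of the forkhead P genes tested Foxp1 alone rose. Of 3 relatives of Neurod2, Neurod1 was tested, and it fell from 25.9 ± 6.45 to 7.65 ± 1.71 CPM (-1.75, edgeR adjusted p = 1.10e-04). The AP-2 genes Tfap2a, Tfap2b and Tfap2c, of which the first and second also mark amacrine cells, were not past the threshold (log2 fold changes -0.75, -0.57 and -0.30). None of the 4 other ZIC genes had enough counts to be tested.

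Of 28 other transcription factors of RGCs, 23 were tested, and 15 fell, 3 rose and 5 were not past the threshold (median log2 fold change -0.90), where 22.7% of all tested genes were lower and 21.3% higher. Of these 15, Irx4 and Irx6 had the largest falls and the Iroquois genes Irx3 (-0.45) and Irx5 (-0.65) the smallest, with Irx4 at 55.4 ± 7.53 CPM in uninjured and 0.946 ± 0.109 CPM in injured samples (log2 fold change -5.82, edgeR adjusted p = 8.17e-09) and Irx6 at 47.5 ± 12.4 and 3.01 ± 1.48 CPM (-4.02, adjusted p = 2.42e-06). Of the POU genes of RGC differentiation, Pou4f2 (log2 fold change -2.64) and Pou4f1 (-1.44) fell, while Pou4f3 was not past the threshold (-0.20). Ebf3 (0.66), Onecut2 (1.39) and Sox11 (5.27) rose. Sox11, a factor of immature neurons, went from 28.2 ± 4.31 to 1080 ± 84.4 CPM (edgeR adjusted p = 1.85e-09). Lower levels were thus found for many subtype and differentiation factors of RGCs in these samples and not for the 8 genes alone.

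Of 11 markers of RGC classes, 10 were tested, and 4 fell, 1 rose and 5 were not past the threshold (median log2 fold change -0.73), where 22.7% of all tested genes were lower and 21.3% higher. Cartpt, Jam2 (-3.33), Mmp17 (-3.03) and Tbx20 fell, and of these Cartpt and Mmp17 are markers of direction-selective RGCs, while Col25a1 (-0.04, adjusted p = 0.935) and Cdh6 (-1.04, adjusted p = 0.125), also found in such cells, were not past the threshold. Adcyap1, a neuropeptide gene of photosensitive RGCs, rose from 47.0 ± 14.6 to 103 ± 23.9 CPM (log2 fold change 1.15, SE 0.25, edgeR adjusted p = 0.00252). Spp1, a marker of alpha RGCs, was at 21.6 ± 24.6 and 92.3 ± 77.3 CPM, with an adjusted p of 0.0813 and a wide spread in both conditions, and Nefh was at 76.3 ± 26.0 and 81.3 ± 7.21 CPM (0.08, adjusted p = 0.829).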

How the data were processed

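The authors aligned the scRNA-seq reads to mm39 (Cell Ranger 7.0.1 per the labels, v1.3 in the paper), kept the RGCs and deposited unnormalized UMI counts for each gene in each cell. Here counts were summed per library with Python 3.11.15, and injured 3 and 4 were averaged with rounding. The test of the sums was edgeR 4.0.16 under R 4.3.3 (filterByExpr, TMM, robust quasi-likelihood fit, condition alone). The members and gene lists were chosen with earlier results of these data known, and genes beyond the 8 are those of the family, factor, class and companion lists. Companions had a mean of at least 50 CPM in positive cells and a ratio above 0 in every library used. Exact permutation tests were two-sided over samples. Intervals (95%) and floors (3 counts) cover counting error alone. Alternatives were DESeq2 1.42.0, library totals, no filter, thinning to 8000 UMIs, no cells with other markers, other sample groupings, other thresholds for positive cells and each sample left out.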

Additional observations from a re-analysis of the deposited data

Results flagged for a closer look

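Of 24 groups of uninjured samples that were looked at (level, share and level within positive cells of the 8 genes), 1 had a sample far from the rest, and chance alone gives about 1 in 20. The level of Neurod2 in uninjured 4 was 22.9 CPM, above the other 5 uninjured samples, and its gap to the next sample was 0.780 of the whole range. Without uninjured 4, Neurod2 was still lower after injury and past the threshold.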

How the results depend on the processing

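Each of the 8 genes kept the direction of its log2 fold change in the settings that tested it, which were 18 for each gene except Zic1 (16, since it did not pass the filter among libraries 1 to 3). Neurod2 and Foxp2 were past the threshold in 18 of 18, Zic1 in 16 of 16, Foxp1 and Satb1 in 17, Eomes in 9, Tfap2d in 2 and Tbr1 in 1. The number of the 8 genes that fell was 5 (3230 of all 14234 tested genes). It was 3 with similar libraries summed (2146 of 15454). It was 4 with no filter beyond 1 count (3345 of 25737) and 4 without cells that held markers of another class (3160 of 13839). With libraries 1 to 3 of each condition and their number as a block, 3 of 7 tested genes fell (3190 of 13638). Without the block, 4 of the 7 fell (3351 of 13638). Whether the numbers pair samples is not known. Between libraries 1 to 3 of the conditions, correlations of deviations from the condition means were between -0.06 and 0.0984. So few libraries cannot decide whether samples were paired. The number of the 8 genes that rose was 1 (3026 of all 14234), and it was 0 with similar libraries summed (2035 of 15454). With each sample left out in turn, 4 to 7 of the 8 genes fell and 1 rose. Over all genes, these settings called 2473 to 3330 lower and 2488 to 3090 higher. A lower share in every injured sample was found for 2 genes (9.88% of all 14234 tested genes were lower). It was found for 1 (Neurod2) with at least 2 UMIs per 10000 and for 1 without cells that held markers of another class. A higher share was found for 1 gene (30.6% of all tested genes were higher). It was found for 0 after thinning to 8000 UMIs (14.6% were higher) and for 0 with any UMI at the cell's own depth. The difference in the Foxp1 share was -0.215 points at the cell's own depth. A higher level within positive cells was found for 1 gene (36.0% of 5755 genes with a level in all 9 samples were higher), for 0 with at least 2 UMIs per 10000, and for 1 to 2 genes with each sample left out. Where no percentage is given, the share over all genes was not counted, so these counts have no background beside them. The difference for Satb1 within positive cells was -0.00391 UMIs per 10000 and changed sign with single samples left out (-0.0693 to 0.0619, and above 0 without uninjured 3, 4 or 5 at 0.0259, 0.0374 and 0.0619 and without injured 1 or 2 at 0.00923 and 0.0185). Of 66 ratios of pairs that were computed again, 7 moved by more than the spread between libraries, each after thinning. The cause of these changes was not tested. Over library totals without TMM factors, the median log2 fold change of all genes was -0.10. Thinning left out 29 uninjured and 233 injured cells. Depth limits Neurod2 and Zic1 most, with 13 and 9 UMIs in injured 1 to 3.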
